A study of Arabidopsis thaliana with 4 samples.

Results

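The 10 genes of nitrate uptake and reduction described here were measured in whole roots of *Arabidopsis thaliana* seedlings: the high-affinity transporters *NRT2.1*, *NRT2.2*, *NRT2.4* and *NRT2.5*, the NRT2 partner *NAR2.1*, the transporter and sensor *NRT1.1*, the nitrate reductases *NIA1* and *NIA2*, the nitrite reductase *NIR1* and the regulator *NLP7*. They were taken by locus identifier from the deposited gene table and make up 10 of its 28642 loci. The tested genotype was *atx1setm*, in which the *atx1-1* mutant carries an *ATX1* transgene whose product lacks histone methyltransferase activity, and the reference was the wild type, WT (Ws). Both genotypes are in the Wassilewskija (Ws) accession, so *atx1setm* differs from WT (Ws) by the *atx1-1* allele and the transgene together, and roots of *atx1-1* alone were not analysed here. Each genotype had 2 libraries, labelled as biological replicates and made from polyA RNA of seedlings labelled as 10 d old. The paper's methods give 8 to 10 d for RNA extraction and 8 d for RNA-Seq, and its results give 8 to 10 d for RNA-Seq. The labels give LS medium and the methods a diluted MS medium with sucrose, and neither describes a change of nitrate supply between the genotypes.

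Nitrate enters root cells through plasma membrane transporters of the NRT1 and NRT2 families. NRT2 proteins take it up at low external concentrations and need the partner protein NAR2.1, whereas NRT1.1 works over a wide range of concentrations and also senses nitrate. Inside the cell nitrate reductase makes nitrite in the cytosol, nitrite reductase turns it into ammonium in plastids, and ammonium is then built into glutamine and glutamate. NLP7 is a transcription factor of the NIN-like family that activates many of these genes when nitrate is present.

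Exon reads per library ranged from 38574293 to 46439122, and 20714 genes passed the filter on low counts. *ATX1* (AT2G31650), the altered gene, had 475 and 270 exon reads in *atx1setm*, against 731 and 388 in WT (Ws). That is a log2 fold change of −0.53 (SE 0.34, edgeR quasi-likelihood adjusted p = 0.701), and reads of the transgene would map to the same locus, so *ATX1* reads do not check the labels. All 6 root markers had reads, but no marker of the 8 cell type lists, green shoot included, was at 0 reads. Having reads therefore does not check the labelled tissue. Markers of 2 outer root cell types differed most between the genotypes. The summed level of 5 root hair markers was 175 and 206 CPM (exon reads scaled to library size) in *atx1setm*, against 613 and 683 CPM in WT (Ws), and that of 2 cortex markers was 32.9 and 35.7 CPM in *atx1setm*, against 154 and 188 CPM in WT (Ws). Of the 6 root markers, 2 were lower at an unadjusted p under 0.05 by the quasi-likelihood test, where 4.78% of all genes were. The 5 endodermis markers summed to 131 and 210 CPM in *atx1setm*, against 215 and 226 CPM in WT (Ws), so the nearest libraries were close. No endodermis marker had an unadjusted p under 0.05 by that test, and 1 of them, *ESB1*, had a positive log2 fold change of 0.74. Summed root markers were 431 and 726 CPM in *atx1setm* and 352 and 426 CPM in WT (Ws). *PHT1.1* alone gave 318 and 580 CPM of this in *atx1setm* and 202 and 266 CPM in WT (Ws). Of the 6 root markers, 1 lay above and 3 lay below both WT (Ws) libraries in both *atx1setm* libraries, beside 19.6% and 20% of all genes. Their median log2 fold change was −0.474, so the higher sum does not describe the list. Root cap markers summed to 19.7 and 27.6 CPM in *atx1setm* and 19.3 and 18.2 CPM in WT (Ws). The 2 genes of this list went opposite ways, with a log2 fold change of 0.85 for *BRN1* and −0.27 for *SMB*. The 10 green shoot markers summed to 186 and 572 CPM in *atx1setm*, against 286 and 487 CPM in WT (Ws), and so overlapped. Xylem and phloem sums also overlapped. In whole roots, fewer cells of a type and less RNA per cell cannot be told apart, and the part of these marker differences in the values that follow was not tested.

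*NRT2.1* (AT1G08090) lies on chromosome 1 at chr1:2524076-2526164 on the plus strand of TAIR10, tail to tail with its paralogue *NRT2.2* (AT1G08100), at chr1:2527170-2529120 on the minus strand, with 1005 bases between the ends of the 2 genes. The coding sequences of *NRT2.1* and *NRT2.2* were 88.1% identical over 1593 aligned positions, and the encoded proteins 87.2% identical over 531, in the RefSeq annotation of TAIR10.1. The longest stretch that both coding sequences share without a difference is shown because single-end reads that fall wholly inside it cannot be given to either gene. It has 170 bases, lies within the coding sequence of *NRT2.1* at chr1:2524520-2524689, and is printed in the direction of transcription, with no capitals.
shared run of *NRT2.1* and *NRT2.2*: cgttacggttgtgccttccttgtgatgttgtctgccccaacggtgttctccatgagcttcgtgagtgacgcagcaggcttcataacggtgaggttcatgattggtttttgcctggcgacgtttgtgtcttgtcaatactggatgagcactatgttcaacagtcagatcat

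Of the 1660 windows of 50 bases in the *NRT2.2* transcript, 174 (10.5%) also occurred elsewhere in the nuclear genome, and of the 2062 windows of *NRT2.1* 174 (8.44%) did. Most windows of both transcripts were thus unique in the Col-0 reference, to which the reads of both Ws genotypes were mapped. *NRT2.4* shared 73.2% of aligned coding positions with *NRT2.1* and had no such window, and *NRT2.5* shared 60.1%, with 18 windows found elsewhere.

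The 250 bases before the RefSeq start of *NRT2.1* and *NAR2.1* are shown because both genes had higher values in *atx1setm*. Capitals mark GAATC on either strand (GATTC where it lies on the other strand), the short motif known to be bound by repressors of the NIGT1 family, which includes HRS1.
*NRT2.1* promoter, chr1:2523773-2524022, plus strand: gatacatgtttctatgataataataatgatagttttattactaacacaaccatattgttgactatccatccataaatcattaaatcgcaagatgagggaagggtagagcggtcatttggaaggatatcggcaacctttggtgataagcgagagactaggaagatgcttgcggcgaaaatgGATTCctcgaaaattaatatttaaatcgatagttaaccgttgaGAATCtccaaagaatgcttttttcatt
*NAR2.1* promoter, chr5:20435930-20436179, plus strand: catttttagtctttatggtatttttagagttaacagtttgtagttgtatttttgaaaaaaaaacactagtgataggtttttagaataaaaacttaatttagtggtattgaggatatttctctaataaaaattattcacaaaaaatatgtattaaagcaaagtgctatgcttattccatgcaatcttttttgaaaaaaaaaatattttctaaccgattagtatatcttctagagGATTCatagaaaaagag

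GAATC began 70 and 27 bases before the start of *NRT2.1* and 17 bases before that of *NAR2.1*. It also occurred in this window of *NRT2.2*, *NRT2.4*, *NRT2.5*, *NIA1*, *NIR1* and *NLP7*, and in 38.7% of the same windows of 26709 protein-coding genes, so it is common and did not set the members with higher values apart.

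The nitrate-responsive element is another sequence of this pathway, known from *NIR1* and recognised by NLP proteins. It was searched on both strands as TGACCCTT and AAGAG with 10 bases between them, from 250 bases before to 50 bases after the start of each gene in the deposited table. It was found in 1 of 26709 windows (0.0037%), that of *NIR1*, at chr2:6810458-6810480 on the plus strand, where its first base lies 18 bases before the table's start and at base 64 of the longer gene in RefSeq. Both arms were searched without mismatches and are those of the *NIR1* element, so altered copies and sites outside the window could not be found. The count therefore does not show that the other members lack such an element. The element of *NIR1* is printed with the 2 conserved arms in capitals because *NIR1* had the smallest fold change of the tested members.
*NIR1* nitrate-responsive element: TGACCCTTtacattgctcAAGAG

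Among the 10 members, 8 passed the filter and were tested. Values of *NRT2.1* and *NAR2.1* were higher in *atx1setm*, those of *NIA1* were lower, and the other 5 tested genes had smaller differences. With the quasi-likelihood test of edgeR, no member and none of the 20714 genes (0%) passed an adjusted p of 0.05, and the smallest adjusted p of any gene was 0.0837. At an unadjusted p under 0.05 by this test, 2 of the 8 members were higher and 1 was lower, beside 1022 genes (4.93%) higher and 990 (4.78%) lower among all genes tested. With the exact test of edgeR, 2 members were higher and 1 was lower at an adjusted p under 0.05, beside 351 genes (1.69%) higher and 461 (2.23%) lower, and DESeq2 called 303 genes higher and 363 lower, with 2 members higher and 1 lower. The called members were *NRT2.1*, *NAR2.1* and *NIA1* with both tools. The median log2 fold change of the 8 members was −0.321, beside −0.012 over all genes tested.

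**Figure D1:**
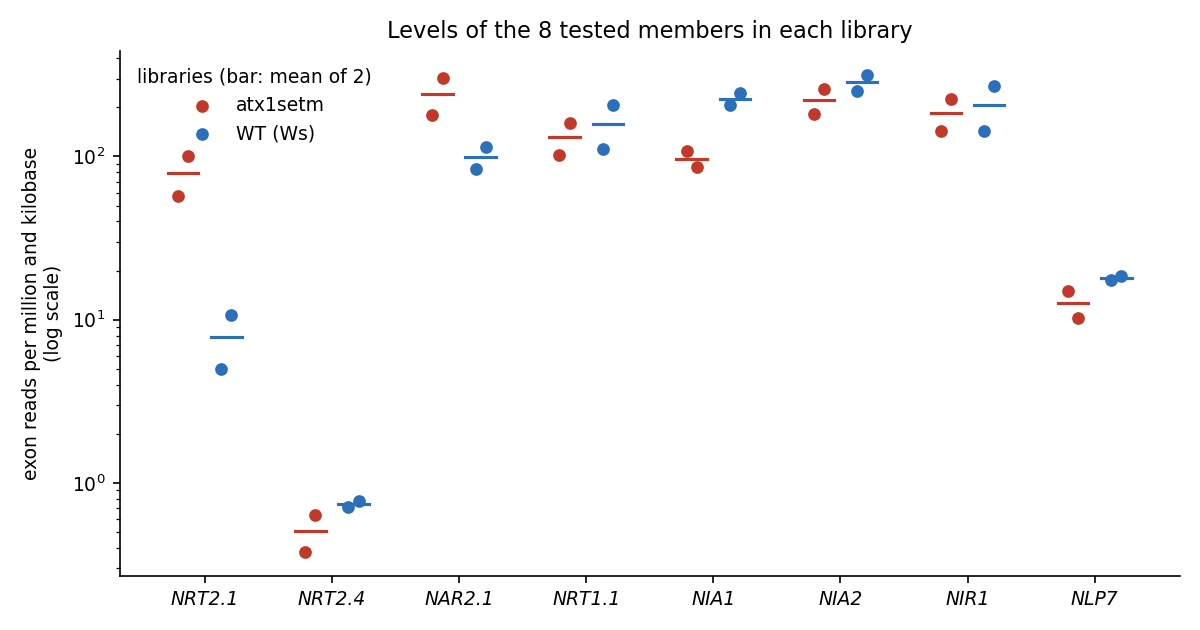
CPM per kilobase of exon (exon reads scaled to library size and gene length, log scale) of the 8 tested members in the 2 libraries of each genotype (red, *atx1setm*; blue, WT (Ws); bars are means of 2 libraries). *NRT2.1* and *NAR2.1* lie higher in both *atx1setm* libraries and *NIA1*, *NRT2.4* and *NLP7* lower, and the genotypes overlap for *NRT1.1*, *NIA2* and *NIR1*.

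*NRT2.1*, the main high-affinity nitrate transporter of roots, had 5078 and 7323 exon reads in *atx1setm*, against 468 and 788 in WT (Ws). Scaled for library size and composition (TMM), this was 109 and 190 CPM in *atx1setm*, against 9.49 and 20.2 CPM in WT (Ws). The genotypes did not overlap, and the lower *atx1setm* library still had 5.38 times the level of the higher WT (Ws) library. The mean was 149.5 ± 57.5 CPM in *atx1setm* and 14.9 ± 7.58 CPM in WT (Ws) (SD, n = 2 each), so the gap between genotypes was larger than the spread within either. The fitted difference was a log2 fold change of 3.33 (SE 0.52), a 10.1-fold higher level in *atx1setm*, with an adjusted p of 0.131 by the quasi-likelihood test, 7.04e-07 by the exact test and 5.04e-10 by DESeq2. The size depended on single libraries, since the log2 fold change was 3.99 without WT (Ws) replicate 2 and 2.88 without WT (Ws) replicate 1. By the quasi-likelihood p, *NRT2.1* ranked 203 of the 20714 genes. Reads across exon junctions, which come from spliced RNA, numbered 274 and 375 in *atx1setm* and 24 and 51 in WT (Ws), and introns held 0 reads in all 4 libraries. Summed root hair and cortex markers were lower in the same *atx1setm* libraries, and single root, root cap and endodermis markers went in both directions. The part of these marker differences in that of *NRT2.1* was not tested.

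*NRT2.2*, the neighbouring copy, had 0 exon reads in both *atx1setm* libraries and 0 and 2 in the WT (Ws) libraries. A count of 0 allows up to 3 reads, which on the library totals is 0.0700 and 0.0666 CPM in *atx1setm* and 0.0646 and 0.0778 CPM in WT (Ws), in counting error only. *NRT2.2* was thus at or under that limit in every library, and no fold is given. The difference in *NRT2.1* was therefore not mirrored by uniquely placed reads at its copy, and adding the reads of both genes left the log2 fold change of *NRT2.1* at 3.33 (adjusted p = 0.131, quasi-likelihood test).

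*NRT2.4* (AT5G60770, chr5:24444396-24447026), a very high-affinity transporter, had 28 and 39 exon reads in *atx1setm*, against 56 and 48 in WT (Ws). That was 0.600 and 1.01 CPM in *atx1setm* and 1.14 and 1.23 CPM in WT (Ws). The genotypes did not overlap, but the nearest libraries differed by only 1.12 times, less than the 1.69-fold spread between the *atx1setm* libraries, and the log2 fold change of −0.56 (SE 0.43) had an adjusted p of 0.733. *NRT2.5* (AT1G12940, chr1:4416405-4418590), known for uptake in nitrogen-starved plants, had 0 and 2 reads in *atx1setm* and 1 and 2 in WT (Ws), under the limit of 3 in every library.

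*NAR2.1* (AT5G50200, chr5:20436180-20437726), the partner protein without which NRT2.1 does not work, had 9700 and 13468 exon reads in *atx1setm*, against 4745 and 5134 in WT (Ws). In CPM this was 208 and 350 in *atx1setm* and 96.2 and 132 in WT (Ws). The lower *atx1setm* library had 1.58 times the level of the higher WT (Ws) library, which is close to the 1.68-fold spread between the *atx1setm* libraries. Its log2 fold change was 1.29 (SE 0.36), a 2.45-fold higher level, with an adjusted p of 0.339 by the quasi-likelihood test, 0.0488 by the exact test and 0.0468 by DESeq2, just under the threshold with both of these tools. Junction reads of *NAR2.1* were 554 and 732 in *atx1setm* and 301 and 341 in WT (Ws).

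*NRT1.1* (AT1G12110, chr1:4105233-4109545), the dual-affinity transporter and nitrate sensor, had 10113 and 13183 exon reads in *atx1setm*, against 11634 and 17242 in WT (Ws). Its levels of 217 and 342 CPM in *atx1setm* and 236 and 442 CPM in WT (Ws) overlapped. The log2 fold change of −0.28 (SE 0.43, adjusted p = 0.831) was smaller than the spread between WT (Ws) libraries, which differed by 1.87 times. Its sign depended on single libraries, since it was 0.01 without *atx1setm* replicate 1 and 0.25 without WT (Ws) replicate 2. Replicate 2 was the higher library in both genotypes, and with replicate number in the model the log2 fold change was −0.25.

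Nitrate reductase is encoded by a pair of genes whose proteins were 76.9% identical in the RefSeq annotation. *NIA1* (AT1G77760, chr1:29235803-29239445, minus strand) had 15209 and 10007 exon reads in *atx1setm*, against 30994 and 28976 in WT (Ws), or 326 and 260 CPM in *atx1setm* and 629 and 743 CPM in WT (Ws). The genotypes did not overlap, and the higher *atx1setm* library had 0.519 of the level of the lower WT (Ws) library. The log2 fold change was −1.23 (SE 0.30), a level 42.7% of that in WT (Ws), with an adjusted p of 0.276 by the quasi-likelihood test, 0.0106 by the exact test and 0.0279 by DESeq2. *NIA1* junction reads were 472 and 255 in *atx1setm* and 978 and 934 in WT (Ws). In the same *atx1setm* libraries, summed root hair and cortex markers were lower, as *NIA1* was. Single root, root cap and endodermis markers went in both directions. The part of these markers in the difference of *NIA1* was not tested.

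*NIA2* (AT1G37130, chr1:14158527-14161938), which provides most nitrate reductase activity in wild-type plants, had 26581 and 31406 exon reads in *atx1setm*, against 38909 and 38720 in WT (Ws). Its levels were 570 and 816 CPM in *atx1setm* and 789 and 993 CPM in WT (Ws), so the genotypes overlapped, and the log2 fold change was −0.36 (SE 0.35, adjusted p = 0.759). No 50-base window of *NIA1* or *NIA2* occurred elsewhere in the genome, so no read of that length without mismatches would be shared by the 2 genes.

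*NIR1* (AT2G15620, chr2:6810476-6812939), the single nitrite reductase gene, had 14193 and 18283 exon reads in *atx1setm*, against 14953 and 22219 in WT (Ws). At 304 and 475 CPM in *atx1setm* and 303 and 570 CPM in WT (Ws), the lower libraries of the genotypes were nearly equal. Its log2 fold change was −0.16 (SE 0.43, adjusted p = 0.900), and it became 0.12 without *atx1setm* replicate 1 and 0.37 without WT (Ws) replicate 2. Replicate 2 was again the higher library in both genotypes, and with replicate number in the model the log2 fold change was −0.13. *NLP7* (AT4G24020, chr4:12479752-12483993) had 2242 and 1264 exon reads in *atx1setm*, against 2777 and 2320 in WT (Ws), which is 48.1 and 32.8 CPM in *atx1setm* and 56.3 and 59.5 CPM in WT (Ws). Both *atx1setm* libraries lay below both WT (Ws) libraries, but the log2 fold change of −0.52 (SE 0.28) had an adjusted p of 0.661.

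Across the 8 tested members, 2 lay higher in both *atx1setm* libraries than in both WT (Ws) libraries and 3 lay lower in both. Among all genes tested, 19.6% and 20% did so, and counts out of 8 are too small to set the members apart from these shares. With 2 libraries against 2, the exact permutation test of a single value cannot go below p = 0.333, so it was not used to call any gene.

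**Figure D2:**
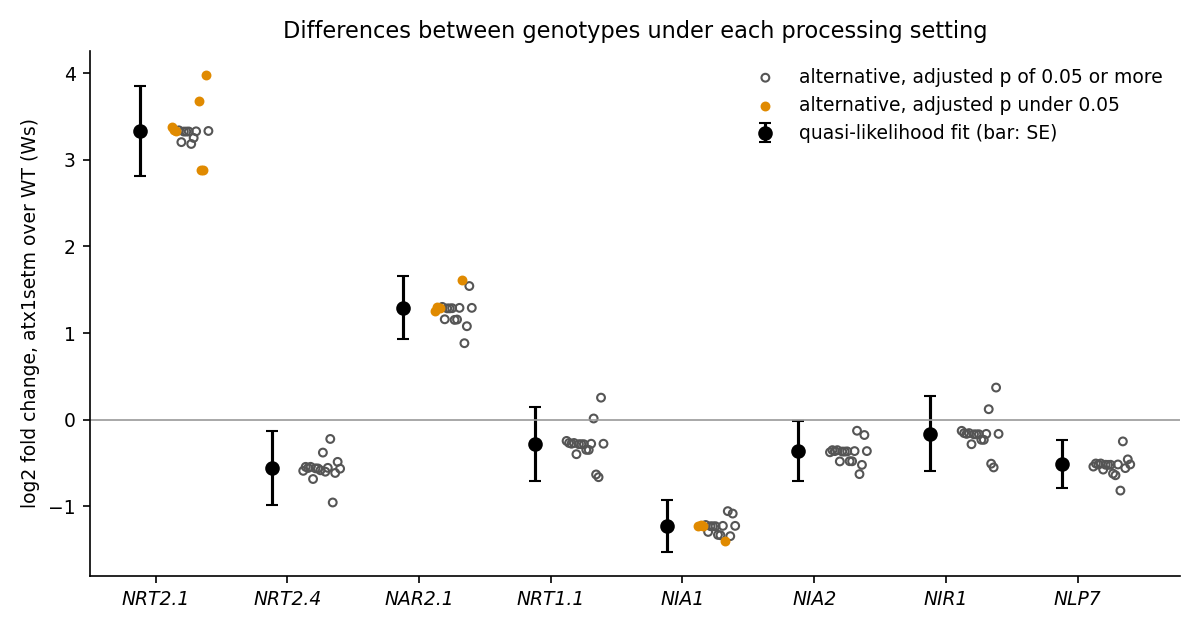
Log2 fold change of *atx1setm* over WT (Ws) for the 8 tested members, with the quasi-likelihood fit in black (bar, SE) and each of the 16 other settings as a small point, filled where the adjusted p was under 0.05. *NRT2.1*, *NAR2.1* and *NIA1* kept their direction under every setting shown, and the points of *NRT1.1* and *NIR1* cross 0.

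Scaled per kilobase of exon, the order of the members differed between the genotypes. In *atx1setm*, *NAR2.1* had the highest mean at 242 ± 87.0 CPM per kilobase (SD, n = 2), followed by *NIA2* at 221 ± 55.6, *NIR1* at 185 ± 57.2, *NRT1.1* at 131 ± 41.6, *NIA1* at 96.6 ± 15.4 and *NRT2.1* at 78.7 ± 30.3, and each of these overlapped its neighbour in the order. *NLP7*, at 12.6 ± 3.36, stood apart below *NRT2.1*, and *NRT2.4*, at 0.509 ± 0.184, stood apart below *NLP7*. In WT (Ws), *NIA2* came first at 285 ± 46.1, followed by *NIA1* at 226 ± 26.8, *NIR1* at 207 ± 89.4, *NRT1.1* at 159 ± 68.3 and *NAR2.1* at 98.8 ± 21.7 CPM per kilobase (SD, n = 2). Libraries of *NIA2* stood apart from those of *NIA1* in WT (Ws), and from *NIA1* to *NAR2.1* each gene overlapped its neighbour. *NLP7*, at 18.1 ± 0.707, and *NRT2.1*, at 7.82 ± 3.99, stood apart in that order, with *NRT2.4* at 0.747 ± 0.0427 below them. *NRT2.1* was thus above *NLP7* in both *atx1setm* libraries and below it in both WT (Ws) libraries.

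Ratios between members within a library do not depend on how libraries are scaled to each other. *NRT2.1* was 0.318 and 0.330 of *NAR2.1* per kilobase in *atx1setm*, against 0.0599 and 0.0932 in WT (Ws), so the transporter differed more than its partner. Relative to *NRT1.1*, *NRT2.1* was 0.564 and 0.624 in *atx1setm*, against 0.0452 and 0.0514 in WT (Ws). Both ratios varied less between the libraries of a genotype than the CPM of *NRT2.1* did, and the genotypes did not overlap. *NAR2.1* exceeded *NRT1.1* in *atx1setm*, at ratios of 1.78 and 1.89, and was below it in WT (Ws), at 0.755 and 0.551. For the reductases, *NIA1* was 0.590 and 0.329 of *NIA2* in *atx1setm*, against 0.822 and 0.772 in WT (Ws). *NIR1* was 0.498 and 0.650 of the sum of *NIA1* and *NIA2* in *atx1setm*, against 0.313 and 0.480 in WT (Ws). The last of these ratios came close to overlapping, and none of the 5 ratios was tested.

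**Figure D3:**
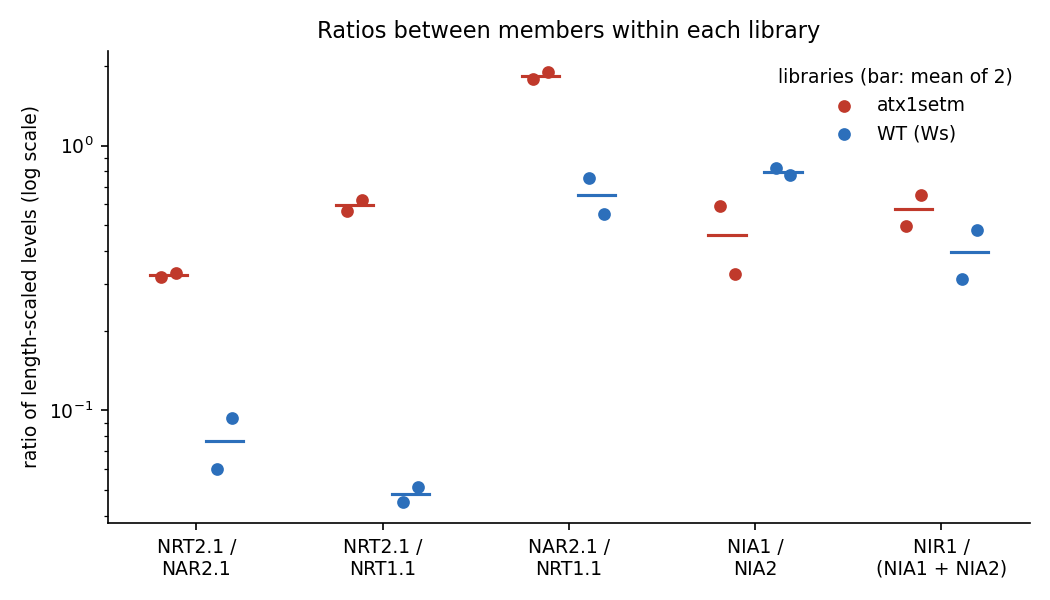
Ratios of length-scaled levels between members in the 2 libraries of each genotype (log scale; red, *atx1setm*; blue, WT (Ws); bars are means of 2 libraries). The ratios of *NRT2.1* to *NAR2.1* and to *NRT1.1* and of *NAR2.1* to *NRT1.1* are higher in *atx1setm*, and that of *NIA1* to *NIA2* is lower.

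Other genes of nitrogen transport, assimilation and signalling were read from 10 lists with 96 genes, of which 87 were tested. At an unadjusted p under 0.05 by the quasi-likelihood test, 5 were higher (4.93% of all genes were) and 5 lower (4.78%), and none passed an adjusted p of 0.05. By the exact test 3 (3.45%) were higher and 2 (2.3%) lower at an adjusted p under 0.05, beside 1.69% and 2.23% of all genes, and the median log2 fold change of the 87 genes was −0.128. By the quasi-likelihood p, 5.75% of the listed genes were higher and 5.75% lower, near the shares of all genes.

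In the list of ammonium assimilation, *ASN1* (AT3G47340), an asparagine synthetase known to be induced in darkness and by sugar shortage, had 11704 and 10922 exon reads in *atx1setm*, against 1628 and 1608 in WT (Ws). This was 251 and 284 CPM in *atx1setm* and 33.0 and 41.3 CPM in WT (Ws), a log2 fold change of 2.85 (SE 0.27, exact test adjusted p = 2.17e-13, quasi-likelihood adjusted p = 0.0837), with genotypes far apart. *GLU1* (AT5G04140), the ferredoxin-dependent glutamate synthase best known from leaves, had 106 and 49 reads in *atx1setm* and 330 and 200 in WT (Ws), a log2 fold change of −1.73 (SE 0.41, exact test adjusted p = 0.0152). *GDH1* (AT5G18170), a glutamate dehydrogenase, had 47.5 and 57.1 CPM in *atx1setm* and 83.2 and 94.1 CPM in WT (Ws), and its log2 fold change of −0.76 (SE 0.24) did not pass the exact test (adjusted p = 0.260). The other 12 genes of this list had an unadjusted p of 0.05 or more.

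Of 16 tested NPF transporters and anion channels, 1 was higher and 2 were lower at an unadjusted p under 0.05. *NPF7.2* (AT4G21680), also called *NRT1.8* and known to take nitrate back out of the xylem sap, had 874 and 402 reads in *atx1setm*, against 167 and 54 in WT (Ws). Its level was 6.08-fold higher in *atx1setm* (SE 0.56 on the log2 scale, exact test adjusted p = 0.00144). *NPF1.2* (AT1G52190) had 111 and 80 reads in *atx1setm* and 302 and 195 in WT (Ws), a log2 fold change of −1.32 (SE 0.31, exact test adjusted p = 0.0374), and *NPF6.4* (AT3G21670) had 1.33 and 1.04 CPM in *atx1setm* and 2.82 and 3.03 CPM in WT (Ws), a log2 fold change of −1.30 (SE 0.34, exact test adjusted p = 0.0715).

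A list built around the peptide receptors CEPR1 and CEPR2, which relay nitrogen demand, held 7 tested loci, of which 3 (42.9%) were higher at an unadjusted p under 0.05 and none was lower, beside 4.93% and 4.78% of all genes, and 1 locus (AT4G32950) passed the exact test. The list was chosen with earlier results of these data known, so this share is a description only. AT4G32950, annotated in RefSeq as a protein phosphatase 2C family protein, had 318 and 260 reads in *atx1setm*, against 17 and 30 in WT (Ws), a log2 fold change of 3.62 (SE 0.48, exact test adjusted p = 1.83e-08). AT2G23440, with few reads, had 10 and 17 in *atx1setm* and 3 and 4 in WT (Ws), and AT5G66815 had 218 and 623 reads in *atx1setm* and 87 and 153 in WT (Ws), and neither passed the exact test (adjusted p = 0.238 and 0.214). Both are annotated as uncharacterized proteins. The receptor genes themselves differed little, with a log2 fold change of 0.17 (SE 0.24) for *CEPR1* and 0.05 (SE 0.26) for *CEPR2*.

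Among 9 repressors of the nitrate response, 1 had an unadjusted p under 0.05. *HRS1* (AT1G13300), a NIGT1 family repressor, had 60.3 and 61.6 CPM in *atx1setm* and 92.4 and 86.5 CPM in WT (Ws), a log2 fold change of −0.55 (SE 0.22, exact test adjusted p = 0.551). No gene had an unadjusted p under 0.05 by the quasi-likelihood test among the 8 genes of molybdenum cofactor and siroheme synthesis, which make the cofactors of both reductases, the 5 of reductant supply, the 4 tested ammonium transporters, the 7 other tested NLP regulators, the 15 other regulators or the 1 other tested *NRT2* gene, *NRT2.6*.

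**Figure D4:**
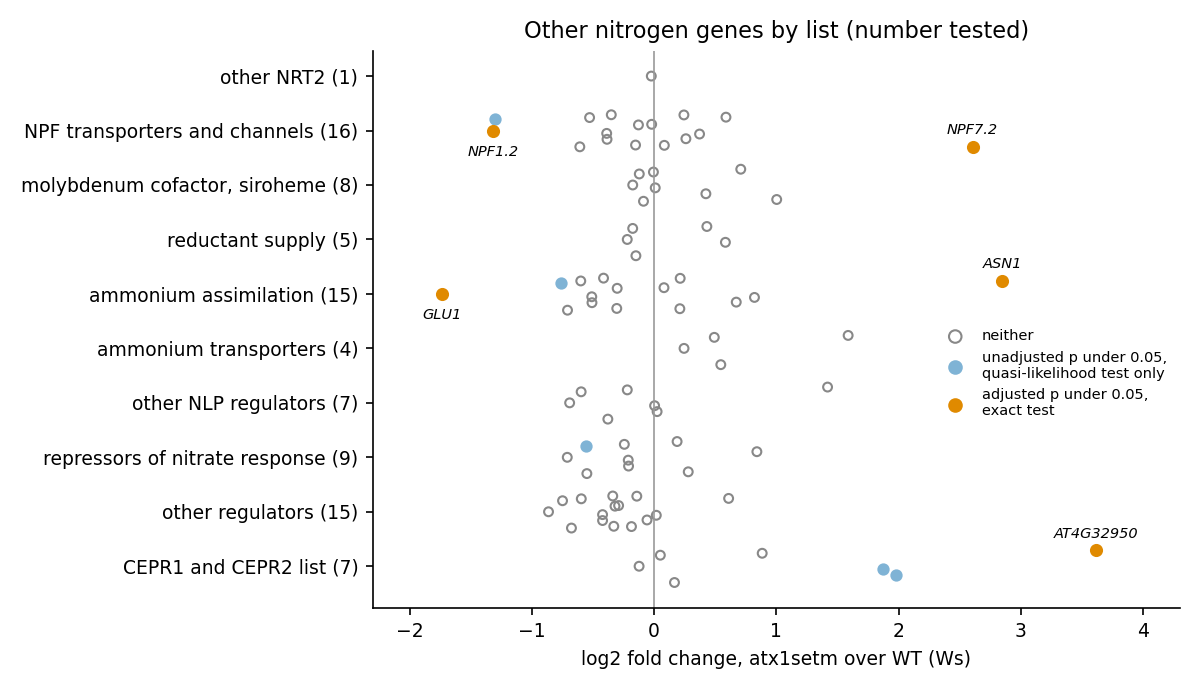
Log2 fold change of *atx1setm* over WT (Ws) for the 87 other tested nitrogen genes, 1 point a gene, by list with the number tested (orange, adjusted p under 0.05 by the exact test; blue, only unadjusted p under 0.05 by the quasi-likelihood test). The 5 orange points are *ASN1*, *NPF7.2* and AT4G32950 on the side of higher values and *GLU1* and *NPF1.2* on the other.

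The 5 genes whose profile over the 4 libraries was most like that of *NRT2.1*, by Euclidean distance of centred log2(CPM + 0.1), were AT5G54320 (distance 0.251), AT1G05650 (0.422), AT1G73120 (0.447), *NAC044* (AT3G01600, 0.519) and *PR-1-LIKE* (AT2G19990, 0.533). None of them is in the nitrogen lists. AT5G54320 had 48 and 77 reads in *atx1setm* and only 1 and 4 in WT (Ws), so its distance depends on the 0.1 CPM added. Its log2 fold change was 4.64, against 3.33 for *NRT2.1*. AT1G73120 had 24.7 and 41.3 CPM in *atx1setm*, against 2.43 and 3.39 CPM in WT (Ws), and *NAC044*, which encodes a NAC domain transcription factor, had 31.6 and 39.0 CPM in *atx1setm*, against 2.43 and 3.69 CPM in WT (Ws). Over 4 libraries such likeness is a description only.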

How the data were processed

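Whole-root RNA was read in 50 single-end cycles. Trimming, mapping to TAIR10 and counting were done by the authors with CLC Genomics Workbench, and the submitters' processing notes name FastQC. Neither strandedness nor mapping settings are stated in the sources used here. The deposited exon, intron, gene and junction read counts are the authors' raw counts of unique reads. The authors' RPKM, also deposited, was used only in an alternative, and their fold changes, p-values and FDR were not used. Of 76 columns with values of single libraries, 46 were not used.

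Exon counts were kept by filterByExpr, scaled by TMM and compared by edgeR's quasi-likelihood test (legacy fit, edgeR 4.0.16, R 4.3.3), with Benjamini-Hochberg adjustment over 20714 genes. CPM were computed from library size times TMM factor, and log2 fold changes are *atx1setm* over WT (Ws). Tests were checked on simulated data. Alternatives were DESeq2 1.42.0, edgeR's exact test, a replicate block, RLE, library totals, other filters, gene reads, limma 3.58.1 on log2 RPKM with 0.5 or 0.1 added, *NRT2.1* and *NRT2.2* summed, and each library left out. A fit without the legacy option was chosen after seeing the data. p-values set the genotype difference against the spread between the 2 libraries of each genotype, with spread estimates that borrow from other genes. Named are all members, other listed genes at an unadjusted p under 0.05 (at most 15), the 5 nearest profiles and *ATX1*. Members and lists were chosen with earlier results of these data known. Sequences are from RefSeq (TAIR10.1), whose chromosomes matched the table. Starts of the table were 1 base below RefSeq starts at 6029 of 9968 loci with equal ends, so 1 was added. Gene names are from RefSeq.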

Additional observations from a re-analysis of the deposited data

How the results depend on the processing

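The counts of genes passing an adjusted p of 0.05 depended on the test. They were 0 higher and 0 lower with the quasi-likelihood test, 303 and 363 with DESeq2, 351 and 461 with the exact test, and 26 and 55 without a filter on low counts. Leaving out 1 library gave 56 to 2153 genes higher and 90 to 2413 lower. The extremes were 2153 and 2413 without *atx1setm* replicate 1 and 56 and 90 without WT (Ws) replicate 1, and the cause was not tested. Of the members, 2 were called higher and 1 lower with DESeq2 and with the exact test, and 1 to 2 higher and 0 to 1 lower when 1 library was left out. The labels number the replicates in both genotypes, but nothing says that a number marks a shared batch, and there are only 2 pairs. With the replicate block, 1838 genes were called higher and 2050 lower, with 2 members higher and 1 lower, and the deviations of same-numbered libraries had a Pearson r of 0.746 over genes, which are not independent.

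*NRT2.1* was higher in *atx1setm* in all 16 alternatives (log2 fold change 2.88 to 3.99) and passed an adjusted p of 0.05 in 7. Of these passes, 4 came from leaving out a library, which leaves 1 genotype with a single library that is assumed to vary like the pair of the other genotype, so they are no support beyond the fit of all 4 libraries (adjusted p = 0.131). *NAR2.1* was higher in all 16 (0.88 to 1.62) and passed in 4, and *NIA1* was lower in all 16 (−1.40 to −1.06) and passed in 4. *NRT1.1* changed sign in 2 (0.01 without *atx1setm* replicate 1, 0.25 without WT (Ws) replicate 2), as did *NIR1* (0.12 and 0.37 without the same libraries). Over the 4 libraries left out in turn they ranged from −0.66 to 0.25 and from −0.55 to 0.37. Both genes were higher in replicate 2 of each genotype, and with the replicate block their log2 fold changes were −0.25 and −0.13. Library totals without TMM and log2 RPKM moved the median of all genes to −0.104, −0.109 and −0.127, against −0.012. Depth limits *NRT2.2*, *NRT2.4* and *NRT2.5*.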

Other observations

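The genes on either side of *NRT2.1* and *NRT2.2*, chosen for their position, are given here. *OTP82* (AT1G08070) had 84 and 34 exon reads in *atx1setm*, against 94 and 58 in WT (Ws), a log2 fold change of −0.33 (SE 0.47), and AT1G08110, the next locus beyond *NRT2.2*, had 2795 and 2469 reads in *atx1setm*, against 3078 and 2521 in WT (Ws), a log2 fold change of −0.04 (SE 0.22). AT1G08080, the locus directly before *NRT2.1*, had 23 and 8 reads in *atx1setm* and 3 and 1 in WT (Ws), too few to be tested.

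Of the 87 other nitrogen genes tested, 18 lay higher in both *atx1setm* libraries than in both WT (Ws) libraries and 20 lay lower, where 19.6% and 20% of all genes did. The examples here are outside the rule for named genes and were chosen after their values were seen. The ammonium transporter *AMT1;1* (AT4G13510) had 172 and 551 exon reads in *atx1setm* and 143 and 120 in WT (Ws), with a quasi-likelihood adjusted p of 0.551. The NIN-like regulator *NLP3* (AT4G38340) had 5.64 and 11.1 CPM in *atx1setm* and 1.40 and 4.87 CPM in WT (Ws), with a quasi-likelihood adjusted p of 0.617. The glutamine synthetase *GLN1;2* (AT1G66200) had 2668 and 4710 CPM in *atx1setm* and 1685 and 2490 CPM in WT (Ws), with a quasi-likelihood adjusted p of 0.687. On the lower side, the glutamate synthase *GLT1* (AT5G53460) had 1209 and 601 CPM in *atx1setm* and 1373 and 1370.5 CPM in WT (Ws), with a quasi-likelihood adjusted p of 0.726, and the xylem-loading transporter *NPF7.3* (AT1G32450) had 355 and 309 CPM in *atx1setm* and 395 and 474 CPM in WT (Ws), with a quasi-likelihood adjusted p of 0.723.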
